A study of Homo sapiens with 24 samples.

Results

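Genes of matricellular proteins and related glycoproteins secreted by fibroblasts were followed in HepaRG cells: the tenascins TNC and TNXB, the FAS1-domain proteins POSTN and TGFBI, the thrombospondins THBS1 and THBS2, SPARC and its relative SPARCL1, the fibulin FBLN1 and the fibrillin FBN1. They were chosen as a list of gene names, and an array probe was assigned to one of them when its annotated RefSeq transcript belonged to that gene. They are 10 of the 20503 genes that the array's RefSeq annotation names, and 18 probes measure them.

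HepaRG is an established human liver cancer line with properties of a liver progenitor. Its RNA was measured on 24 one-colour Agilent arrays, 3 for each of 8 conditions, to follow the response to the ligand Wnt3a and how that response depends on β-catenin and on Wnt outside the cell. The mouse recombinant protein Wnt3a was given at 200 ng/ml for 72 h in serum-free medium, and the mouse recombinant FZD8_CRD, the Wnt-binding domain of a Frizzled receptor in soluble form, at 300 ng/ml over the same time. The 8 conditions were untransfected cells, cells electroporated with 80 pmol of a control siRNA, cells electroporated with 80 pmol of an siRNA against CTNNB1 (the β-catenin gene) and untransfected cells given FZD8_CRD, each without and with Wnt3a.

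Matricellular proteins are secreted into the extracellular matrix, where they bind receptors, growth factors and fibrous proteins and change how cells attach, more than they bear load themselves. Fibrillins and fibulins are parts of microfibrils and elastic fibres, which also hold latent TGF-β. In injured liver such genes are known from activated stellate cells and portal fibroblasts, and in tumours from the stroma.

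Each array's intensities were divided by that array's 75th percentile and put on the log2 scale, so a value of 0 is a probe as bright as the 75th percentile and a difference of 1 is a doubling. Values on this scale compare conditions for one probe and do not rank genes against each other, since probes differ in how well they bind. The 75th percentile lay between 635.1 and 933.2 intensity units, and 58.26% to 66.5% of the spots on an array were well above background. Of the 10 genes, 9 were well above background on all 24 arrays, and SPARCL1 on 8. All passed the filter on dim probes and were tested together with the other genes, 24647 in all, with limma, and a difference was called when its p, adjusted over all of them by Benjamini and Hochberg, was under 0.05. The replicate number, which is also the slide, was not in this fit. Residuals of arrays with the same number correlated at a mean of 0.384, so the slide was also tried as a block, which changed some calls. The small number of arrays limits the precision of every value. In such bulk RNA, fewer cells that express a gene and less RNA per cell cannot be told apart.

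One array stood apart from the others of its condition. On replicate 3 of FZD8_CRD alone, 1238 of the genes (5.03%) lay more than 1 log2 unit from the mean of the other 2 arrays, against 0.86% to 4.47% on the other 23 arrays. TNC, POSTN and TGFBI were among them. That array also had the brightest spike-in control probes of the 24, with a mean of 3.24 on the log2 scale against 2.2 to 3.15 elsewhere. Next in distance came replicate 3 (4.47%) and replicate 2 (3.88%) of Wnt3a alone and replicate 3 of untreated cells (3.84%). All 8 conditions share the estimate of the spread between arrays, so this array widens the errors of TNC, POSTN and TGFBI in every comparison, and results are given with it and without it. Its omission was planned for the comparisons that use it and was added after seeing the data for the others.

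**Figure D1:**
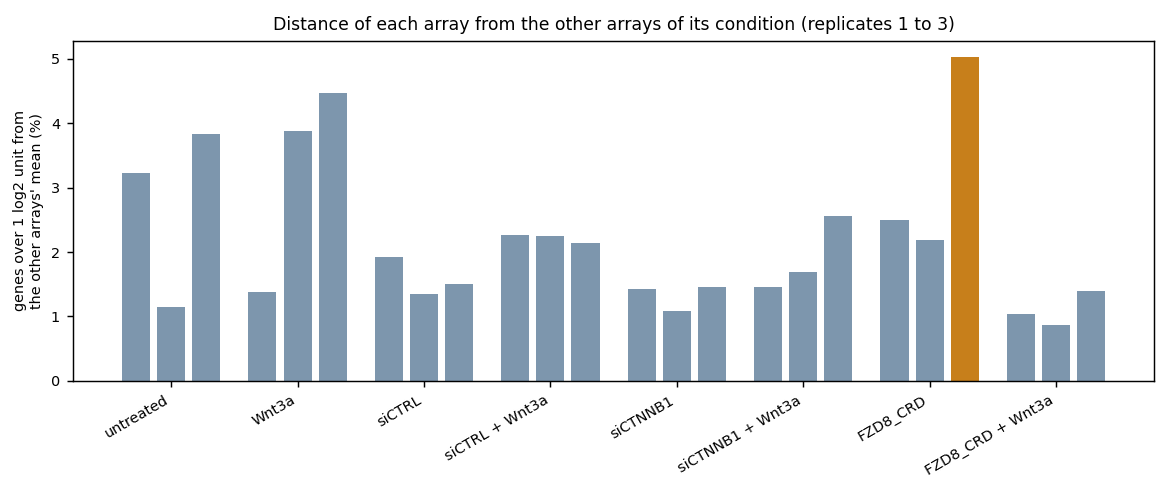
Bars give, for each of the 24 arrays on the horizontal axis, the percent of genes whose log2 signal lay more than 1 from the mean of the other arrays of the same condition. The orange bar is replicate 3 of FZD8_CRD alone, the tallest at 5.03%.

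The siRNA was checked on its target. CTNNB1 read 3.35, 3.39 and 3.52 on the log2 scale on the 3 control siRNA arrays and 0.26, 0.36 and 0.52 with the β-catenin siRNA. The difference was -3.04 ± 0.17 (SE, adjusted p = 1.43e-09) without Wnt3a and -3.02 ± 0.17 (adjusted p = 9.49e-10) with it. Wnt3a itself was followed by no called change in CTNNB1 in any of the 4 contexts, with differences from 0.03 to 0.24.

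Markers of the labelled cell line and of other cell types were read as a check. Of 10 liver progenitor and hepatocyte markers, 9 passed the filter (EPCAM did not), and albumin (ALB, mean 9.41 in untreated cells) and the keratins KRT8 (5.16), KRT18 (7.17) and KRT19 (7.94) were bright on every array. The endothelial markers PECAM1, VWF and CDH5 (means -4.7, -4.59 and -3.24 in untreated cells) and the leukocyte markers PTPRC (-3.53), CD14 (1.21) and CD68 (1.59) were each well above background on 24 of 24 arrays as well, so none of them is shown to be absent. Of 8 stellate cell and fibroblast markers, 7 passed the filter (THY1 did not). DCN (5.37), LUM (2.59) and ACTA2 (3.19) were bright on all 24 arrays, whereas PDGFRA, PDGFRB and LRAT were well above background on 18, 7 and 20 arrays.

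Some of these markers moved with the treatments. Among the 9 liver markers limma called 0 after Wnt3a in untransfected cells and with either siRNA (1, 2 and 2 at an unadjusted p under 0.05), and 2 higher in the presence of FZD8_CRD, AFP (0.67, adjusted p = 0.0114) and APOA1 (2.22, adjusted p = 0.0373). Control siRNA against no transfection gave 3 lower without Wnt3a (ALB, -1.65, adjusted p = 0.000899, among them) and 1 lower with it (ALB, -2.09, adjusted p = 0.00156). The β-catenin siRNA against control siRNA gave none called by limma without Wnt3a (2 at an unadjusted p under 0.05) and 1 higher and 1 lower with it, and FZD8_CRD gave 2 higher and 4 lower without Wnt3a and 2 higher and 3 lower with it. The shares of all genes called are the background to these counts and to those of the next paragraph: 5.42%, 2.02%, 0.0406% and 8.22% for Wnt3a in the 4 contexts, 22.4% and 8.87% for control siRNA without and with Wnt3a, 10.5% and 10.6% for β-catenin siRNA, and 41.9% and 37.2% for FZD8_CRD. PECAM1 was the only endothelial call in the 12 comparisons (-0.94, adjusted p = 0.0188, β-catenin siRNA without Wnt3a). Among leukocyte markers CD14 was lower with β-catenin siRNA without and with Wnt3a (-1.12 and -1.30), while CD68 rose with Wnt3a under FZD8_CRD (0.91) and fell with FZD8_CRD alone (-1.27).

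Of the 7 stellate cell and fibroblast markers tested, 3 were higher after Wnt3a in untransfected cells, DCN (0.72, adjusted p = 0.0271), LUM (1.05, adjusted p = 0.00437) and ACTA2 (0.32, adjusted p = 0.00819). DES, LRAT, PDGFRA and PDGFRB read lower there without a call, and the median difference of the list was -0.13. With control siRNA and with β-catenin siRNA limma called 0 (5 and 0 at an unadjusted p under 0.05), and in the presence of FZD8_CRD 1 rose (ACTA2, 0.27, adjusted p = 0.0121). Of the 5 with control siRNA, DCN, LUM and ACTA2 were higher and LRAT and PDGFRB lower. PDGFRB does not count there, for the reason given below. Control siRNA against no transfection gave 2 lower without Wnt3a (DCN, -0.69, adjusted p = 0.00958, among them) and 1 lower with it (DCN, -0.90, adjusted p = 0.00628). The β-catenin siRNA was followed by 4 lower without Wnt3a, of which PDGFRB is not a result because it passed the filter through the control siRNA condition alone, and the others were DCN (-1.51, adjusted p = 2.31e-05), LUM (-1.02, adjusted p = 0.00137) and DES (-0.85, adjusted p = 0.000241), and 3 with Wnt3a, DCN (-1.81, adjusted p = 1.89e-06), LUM (-1.62, adjusted p = 9.45e-06) and DES (-0.62, adjusted p = 0.00303). FZD8_CRD alone raised 1 and lowered 2 (DCN, -1.49, adjusted p = 3.11e-06, among the lower). With Wnt3a FZD8_CRD raised 1 and lowered 4, among them DCN (-2.35, adjusted p = 1.12e-07) and LUM (-1.43, adjusted p = 1.14e-05), in the comparison in which TNC, POSTN, TGFBI, THBS1 and THBS2 rose. The LUM response to Wnt3a was smaller with FZD8_CRD (-1.42, adjusted p = 0.0477). Whether these shifts have a part in the values of the 10 genes was not tested.

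The most widespread pattern among the 10 genes was a higher signal with Wnt3a. In untransfected cells Wnt3a was followed by higher THBS2, SPARC and FBN1, so 3 of 10 were called against 5.42% of all genes tested. The 10 genes were chosen with earlier results of these data known, so such shares may follow in part from that choice. With the control siRNA, THBS2 and SPARC rose, 2 of 10 against 2.02%. With the β-catenin siRNA limma called 0 of 10 (5 at an unadjusted p under 0.05), against 0.0406% of all genes, which is 10 genes in total. In the presence of FZD8_CRD, TNC, POSTN, TGFBI, THBS1, THBS2, SPARC and FBN1 rose with Wnt3a, 7 of 10 against 8.22%. The median log2 difference over the 10 genes was 0.78, 0.74, 0.30 and 0.82 in these 4 contexts, beside 0.02, 0.03, 0.03 and 0.03 over all genes. With β-catenin siRNA the 0 of 10 and the median of 0.30 include SPARCL1. Its difference in that context is conditioned on the filter, as described below, and is not a result. The 4 comparisons have separate controls and no array in common.

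Without replicate 3 of FZD8_CRD alone the calls among the 10 genes became 6 in untransfected cells, 6 with control siRNA and 4 with β-catenin siRNA, all higher with Wnt3a, and 8 in the presence of FZD8_CRD, 7 of them higher. The share of all genes called rose as well, to 9.17%, 5.06%, 0.548% and 19.8%. In the first 3 contexts the estimated differences are the same with and without that array, which none of them uses. Only the shared spread, narrower for TNC, POSTN and TGFBI, and the adjustment over all genes change.

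The other comparisons held the Wnt3a state fixed. Control siRNA against no transfection gave 1 called gene of 10 without Wnt3a (SPARC higher), against 22.4% of all genes, and limma called 0 with Wnt3a (1 at an unadjusted p under 0.05), against 8.87%. The β-catenin siRNA against control siRNA gave 2 lower without Wnt3a (SPARC and FBN1), against 10.5%, and 5 lower with Wnt3a (THBS1, THBS2, SPARC, FBLN1 and FBN1), against 10.6%. FZD8_CRD against untreated cells gave 3 higher without Wnt3a (THBS1, THBS2 and FBLN1), against 41.9%, and 5 higher with Wnt3a (TNC, POSTN, TGFBI, THBS1 and THBS2), against 37.2%. Without replicate 3 of FZD8_CRD alone, FZD8_CRD in cells without Wnt3a gave 2 higher and 2 lower, against 40.6% of all genes. With the slide as a block in the fit, FZD8_CRD gave more calls among the 10 genes, some of them lower, and more among all genes. Both counts are given side by side in the closing section on the processing. With FZD8_CRD, and with control siRNA alone, large shares of all genes were called too. These comparisons share arrays with one another and with the Wnt3a responses.

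Whether the Wnt3a response itself differed between contexts was tested as a difference of differences. Between β-catenin siRNA and control siRNA limma called 0 of 10 (1 at an unadjusted p under 0.05), against 0.0162% of all genes. Between FZD8_CRD and no FZD8_CRD it called 0 of 10 (0 at an unadjusted p under 0.05), against 0.073% of all genes, and without replicate 3 of FZD8_CRD alone 3 of 10 (TNC, POSTN and TGFBI, each a larger response with FZD8_CRD) against 7.77%.

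These counts moved with the processing. Of the 28 called differences, 9 were still called when arrays were scaled to the 7 spike-in probes in place of the 75th percentile: the responses of TNC, POSTN and TGFBI to Wnt3a in the presence of FZD8_CRD, the lower THBS1 and SPARC with β-catenin siRNA and Wnt3a, the higher THBS1 with FZD8_CRD alone, and the higher TNC, POSTN and THBS1 with FZD8_CRD and Wnt3a. Calls fell over the whole array under this scaling, for Wnt3a from 1337 to 279 of all genes in untransfected cells, from 497 to 56 with control siRNA and from 2026 to 237 in the presence of FZD8_CRD, and for β-catenin siRNA from 2589 to 172 without and from 2610 to 662 with Wnt3a, so the loss is not particular to the 10 genes. All 28 kept their sign under every alternative. The Wnt3a calls were also lost without replicate 1 or without replicate 2 of every condition, in fits with fewer arrays where the differences stayed positive. None was lost without replicate 3 of every condition. Without replicate 1 of every condition limma called 0 of 10 in untransfected cells, with control siRNA and in the presence of FZD8_CRD (5, 6 and 6 at an unadjusted p under 0.05), and without replicate 2 again 0 in each (3, 6 and 7), while of all genes 24 or fewer were called in any of these 6 fits. Fitted on only the 6 arrays compared, limma called 0 of 10 for Wnt3a in untransfected cells (6 at an unadjusted p under 0.05, and 2 of all genes called), 7 with control siRNA (1308 of all genes), 1 with β-catenin siRNA (10 of all genes) and 0 in the presence of FZD8_CRD (7 at an unadjusted p under 0.05, and 0 of all genes called).

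**Figure D2:**
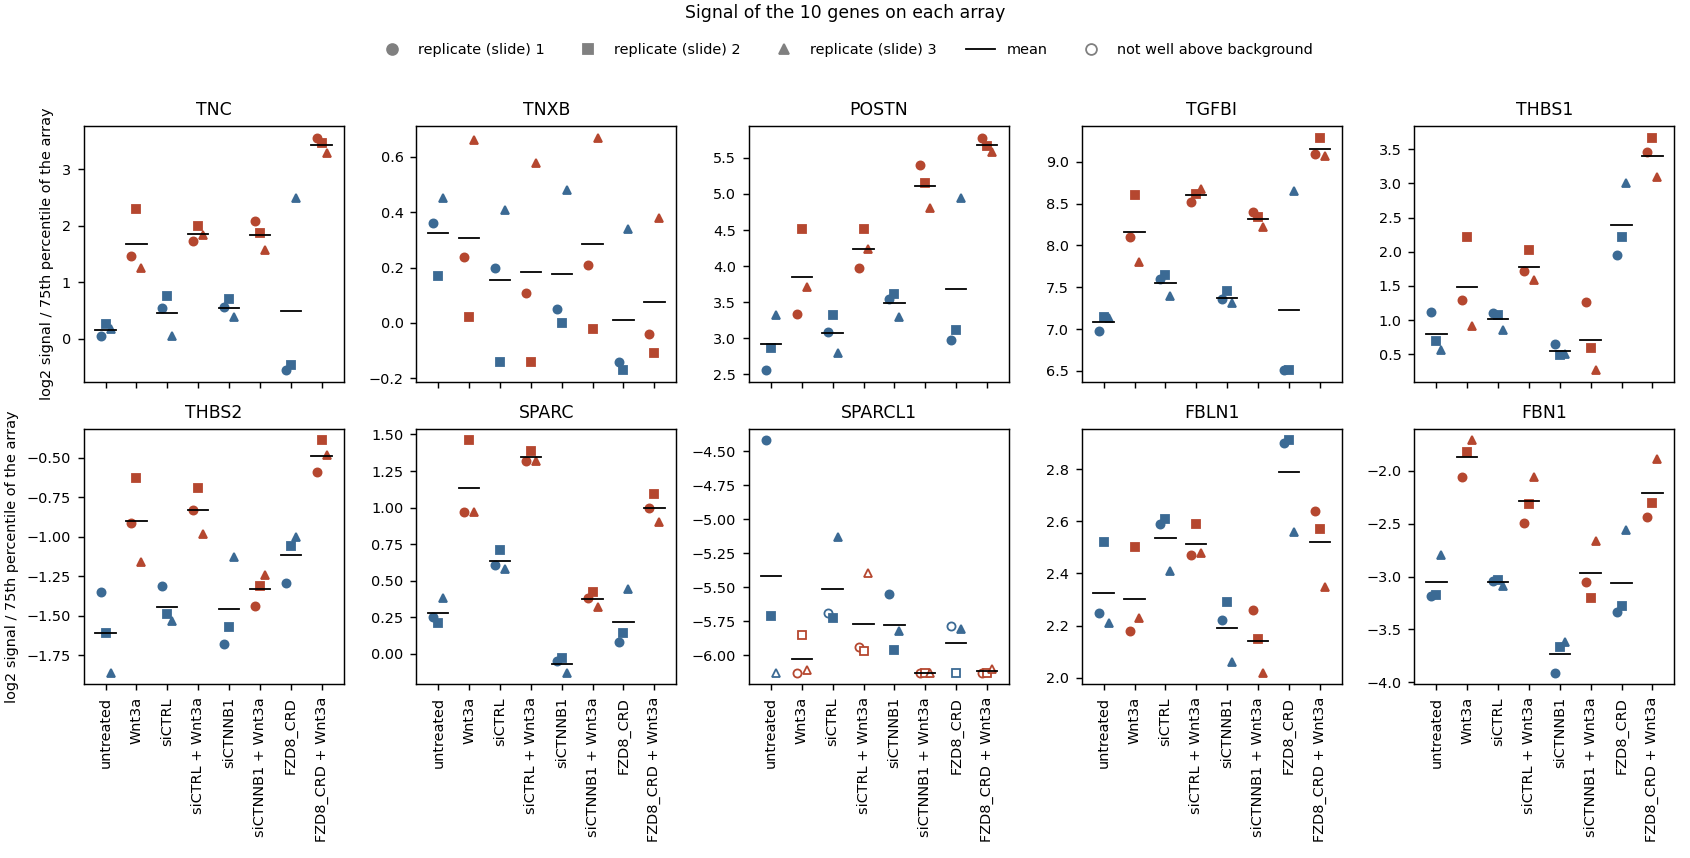
Each panel shows one of the 10 genes, with the 8 conditions on the horizontal axis and the log2 signal relative to the array's 75th percentile on the vertical axis. Symbols are single arrays (circle, square and triangle for replicates 1, 2 and 3; blue without and red with Wnt3a; open where not well above background) and lines are condition means, with TNC at 3.29 to 3.56 under FZD8_CRD with Wnt3a and one array at 2.49 under FZD8_CRD alone.

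TNC encodes tenascin-C, a hexameric glycoprotein that reappears in wounds, fibrosis and tumour stroma. The 120 bases before its annotated start, chr9:115118158-115118277 on the minus strand of GRCh38.p14 as given by RefSeq, are printed because TNC had the widest span of condition means of the 10 genes. In this and the following sequences capitals mark matches to 3 motifs, chosen after the sequences were seen and searched on both strands. The core bound by TEAD factors, GGAATG, is held by 5.6% of 35116 RefSeq promoters in the same window. Letters of the TATA box, ATATAA, are held by 3.71% of them. The core bound by TCF and LEF factors, CTTTGA, is held by 5.08%. A match on the other strand appears as the reverse complement. A match is a description of letters, not evidence of a site. TNC has ATATAA with its first base at -28.
TNC: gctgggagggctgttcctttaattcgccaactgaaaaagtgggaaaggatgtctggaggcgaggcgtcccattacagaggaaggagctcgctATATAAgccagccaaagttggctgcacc

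TNC read 0.05, 0.26 and 0.17 on the 3 untreated arrays and 1.47, 2.30 and 1.25 with Wnt3a. With control siRNA it read 0.54, 0.76 and 0.06 without and 1.74, 2.00 and 1.84 with Wnt3a. The β-catenin siRNA arrays gave 0.56, 0.70 and 0.39 without and 2.09, 1.88 and 1.57 with Wnt3a. Thus every array with Wnt3a lay above every array without it in these 3 contexts. Under FZD8_CRD the values were -0.55, -0.46 and 2.49 without and 3.56, 3.46 and 3.29 with Wnt3a. The first 2 FZD8_CRD arrays were the lowest of all 24 and the third lay above every Wnt3a array outside that context, while the 3 arrays with both agents were the highest.

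The Wnt3a response of TNC was called in the presence of FZD8_CRD, at 2.95 ± 0.49 (SE, 95% interval 1.92 to 3.98, adjusted p = 0.00168), a 7.72-fold rise. In the other contexts the difference was 1.51 (adjusted p = 0.0762, untransfected), 1.41 (adjusted p = 0.158, control siRNA) and 1.29 (adjusted p = 0.355, β-catenin siRNA). Leaving out replicate 3 of FZD8_CRD alone lowered the SE in those contexts from 0.49 to 0.21 and the adjusted p to 0.000263, 0.000898 and 0.0061, and raised the response in FZD8_CRD to 3.95 (adjusted p = 1.19e-09). Leaving out replicate 3 of Wnt3a alone also gave a call in untransfected cells (1.72, adjusted p = 0.0477). Between β-catenin siRNA and control siRNA in the presence of Wnt3a, TNC differed by -0.02 (95% interval -1.05 to 1.02, adjusted p = 0.997).

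FZD8_CRD together with Wnt3a gave higher TNC than Wnt3a alone, by 1.77 ± 0.49 (adjusted p = 0.00793, 3.4-fold), a call lost without replicate 1 of every condition (1.60, adjusted p = 0.14). FZD8_CRD alone against untreated cells gave 0.33 (adjusted p = 0.628) with all arrays and -0.67 (adjusted p = 0.0266) without its replicate 3, so the sign of that difference rests on 1 array. The test of whether FZD8_CRD changed the Wnt3a response gave 1.44 (adjusted p = 0.403) with all arrays and 2.43 (adjusted p = 6.25e-05) without that array. Within the 3 slides, each of which carried the same-numbered replicate of every condition, so that slide and culture experiment cannot be told apart, this value was 2.70, 1.88 and -0.27. In the order of condition means, FZD8_CRD with Wnt3a (3.44) stood clear of control siRNA (1.86), β-catenin siRNA (1.85) and no transfection (1.67) with Wnt3a, which did not differ beyond their spread. β-catenin siRNA (0.55), control siRNA (0.45) and untreated cells (0.16) followed, and the FZD8_CRD mean (0.49, SD 1.73) could not be placed, its arrays lying below and above all of these 3.

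TNXB encodes tenascin-X, a tenascin of loose connective tissue that regulates collagen fibrils. It lies in a duplicated stretch of the genome whose other copy holds the pseudogene TNXA, so its probes may also read RNA from there. On its brightest probe TNXB ranged from -0.17 to 0.67 over the 24 arrays, with condition means from 0.01 to 0.33, and was called in none of the 10 direct comparisons. None of its differences exceeded 0.32 in size, the largest being -0.32 ± 0.22 (adjusted p = 0.266) for FZD8_CRD alone. With slide as a block, which removes the difference between slides from the error, TNXB was called lower with FZD8_CRD both without Wnt3a (-0.32, adjusted p = 0.00277; within slides -0.5, -0.34 and -0.11) and with it (-0.23, adjusted p = 0.0264; within slides -0.27, -0.13 and -0.28). Of its 5 probes, 2 were near the floor with FZD8_CRD and could hardly be called lower. Of the 3 probes over background on every array, 1 was called lower with FZD8_CRD alone (-0.85, adjusted p = 0.00107) and 2 with FZD8_CRD and Wnt3a (-0.75, adjusted p = 0.00326, and -0.77, adjusted p = 0.0422), adjusted over all probes.

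POSTN encodes periostin, which binds collagen and integrins and is made by activated fibroblasts. TGFBI encodes a related matrix protein, induced by TGF-β, with the same FAS1 domains. Their promoters are shown because both genes followed TNC over the conditions. The POSTN stretch is chr13:37598769-37598888 on the minus strand and the TGFBI stretch chr5:136028868-136028987 on the plus strand of GRCh38.p14, from RefSeq, each ending at the base before the annotated start. POSTN, like TNC, has ATATAA close to the start (first base at -30), and TGFBI has none of the 3 motifs in this window. THBS2 (at -30) and, on the other strand, SPARCL1 (at -103) hold ATATAA too.
POSTN: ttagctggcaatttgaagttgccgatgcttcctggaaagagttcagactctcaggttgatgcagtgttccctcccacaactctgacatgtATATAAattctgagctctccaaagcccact
TGFBI: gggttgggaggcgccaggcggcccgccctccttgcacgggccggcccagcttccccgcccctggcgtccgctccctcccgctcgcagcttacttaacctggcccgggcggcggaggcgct

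POSTN read 2.56, 2.87 and 3.32 in untreated cells and 3.34, 4.51 and 3.71 with Wnt3a. With control siRNA it read 3.09, 3.32 and 2.80 without and 3.98, 4.51 and 4.23 with Wnt3a. With β-catenin siRNA the values were 3.55, 3.62 and 3.30 without and 5.40, 5.15 and 4.80 with Wnt3a. In each of these contexts the arrays with Wnt3a lay above those without, by as little as 0.02 in untransfected cells. Under FZD8_CRD the values were 2.97, 3.12 and 4.95 without and 5.78, 5.67 and 5.58 with Wnt3a. Again replicate 3 of FZD8_CRD alone stood far above the other 2 arrays of its condition.

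The POSTN response to Wnt3a was called in the presence of FZD8_CRD, at 2.00 ± 0.37 (95% interval 1.23 to 2.77, adjusted p = 0.00302, 3.99-fold). It was 0.94 (adjusted p = 0.141) in untransfected cells, 1.17 (adjusted p = 0.109) with control siRNA and 1.63 (adjusted p = 0.124) with β-catenin siRNA. Without replicate 3 of FZD8_CRD alone these 3 were called (adjusted p = 0.0198, 0.00715 and 0.0035), and the response in FZD8_CRD was 2.63 (adjusted p = 1.03e-06). With β-catenin siRNA and Wnt3a POSTN read 0.88 above control siRNA and Wnt3a (adjusted p = 0.157), and this was called without that array (adjusted p = 0.018). It was the only one of the 10 genes with a called higher value under β-catenin siRNA in either fit. Within slides the difference was 1.42, 0.64 and 0.57.

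FZD8_CRD with Wnt3a against Wnt3a alone gave 1.83 ± 0.37 higher POSTN (adjusted p = 0.000648, 3.55-fold), and that call held with each single array left out. FZD8_CRD alone gave 0.76 (adjusted p = 0.105), called when replicate 1 (1.12, adjusted p = 0.026) or replicate 2 (1.05, adjusted p = 0.047) of that condition was left out, so that the high replicate 3 weighed more. The difference between the Wnt3a responses with and without FZD8_CRD was 1.06 (adjusted p = 0.412) with all arrays and 1.70 (adjusted p = 0.00562) without replicate 3 of FZD8_CRD alone. In condition means FZD8_CRD with Wnt3a (5.68) and β-catenin siRNA with Wnt3a (5.12) came first. Control siRNA with Wnt3a (4.24) and Wnt3a alone (3.85), whose arrays overlap, followed, and then β-catenin siRNA, control siRNA and untreated cells (2.92 to 3.49). The FZD8_CRD mean (3.68, SD 1.1) could not be placed. Its arrays ran from 2.97, within the range of untreated cells, to 4.95, above the lowest array of β-catenin siRNA with Wnt3a (4.8).

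TGFBI was bright throughout. It read 6.98, 7.15 and 7.13 in untreated cells and 8.10, 8.60 and 7.80 with Wnt3a. The control siRNA arrays gave 7.60, 7.65 and 7.40 without and 8.52, 8.62 and 8.67 with Wnt3a. The β-catenin siRNA arrays gave 7.36, 7.46 and 7.31 without and 8.40, 8.34 and 8.22 with Wnt3a. As with TNC, all 9 arrays with Wnt3a in these contexts lay above all 9 without. Under FZD8_CRD TGFBI read 6.51, 6.51 and 8.65 without and 9.10, 9.29 and 9.07 with Wnt3a, so 2 of the FZD8_CRD arrays were the lowest of all 24 and the third lay within the range of the Wnt3a arrays.

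The TGFBI response to Wnt3a was called in the presence of FZD8_CRD, at 1.93 ± 0.35 (adjusted p = 0.00251, 3.82-fold), and was 2.65 (adjusted p = 5.83e-10) without replicate 3 of FZD8_CRD alone. In the other contexts it was 1.08 (adjusted p = 0.0716), 1.05 (adjusted p = 0.128) and 0.95 (adjusted p = 0.333), and called in all 3 without that array (adjusted p = 8.1e-05, 0.000245 and 0.00241). Leaving out replicate 3 of Wnt3a alone also gave a call in untransfected cells (1.27, adjusted p = 0.0373). Control siRNA read 0.47 above no transfection without Wnt3a (adjusted p = 0.39) and 0.43 with it (adjusted p = 0.521), and without replicate 3 of FZD8_CRD alone both were called (adjusted p = 0.0136 and 0.0395).

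FZD8_CRD with Wnt3a gave 0.99 ± 0.35 higher TGFBI than Wnt3a alone (adjusted p = 0.0303, 1.98-fold). That call was lost with any of 5 of the 6 arrays left out singly (adjusted p = 0.0536 to 0.116), all but replicate 2 of Wnt3a alone, with differences from 0.80 to 1.03. FZD8_CRD alone gave 0.14 (adjusted p = 0.789) with all arrays and -0.58 (adjusted p = 0.00421) without its replicate 3, and within slides -0.47, -0.64 and 1.52. The difference between the Wnt3a responses was 0.85 (adjusted p = 0.516) with all arrays and 1.56 (adjusted p = 6.23e-05) without that array. Condition means ran from 9.15 (FZD8_CRD with Wnt3a) through 8.60, 8.32 and 8.17 for the other Wnt3a conditions to 7.09 in untreated cells, and the FZD8_CRD mean (7.22, SD 1.23) could not be placed among its neighbours.

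**Figure D3:**
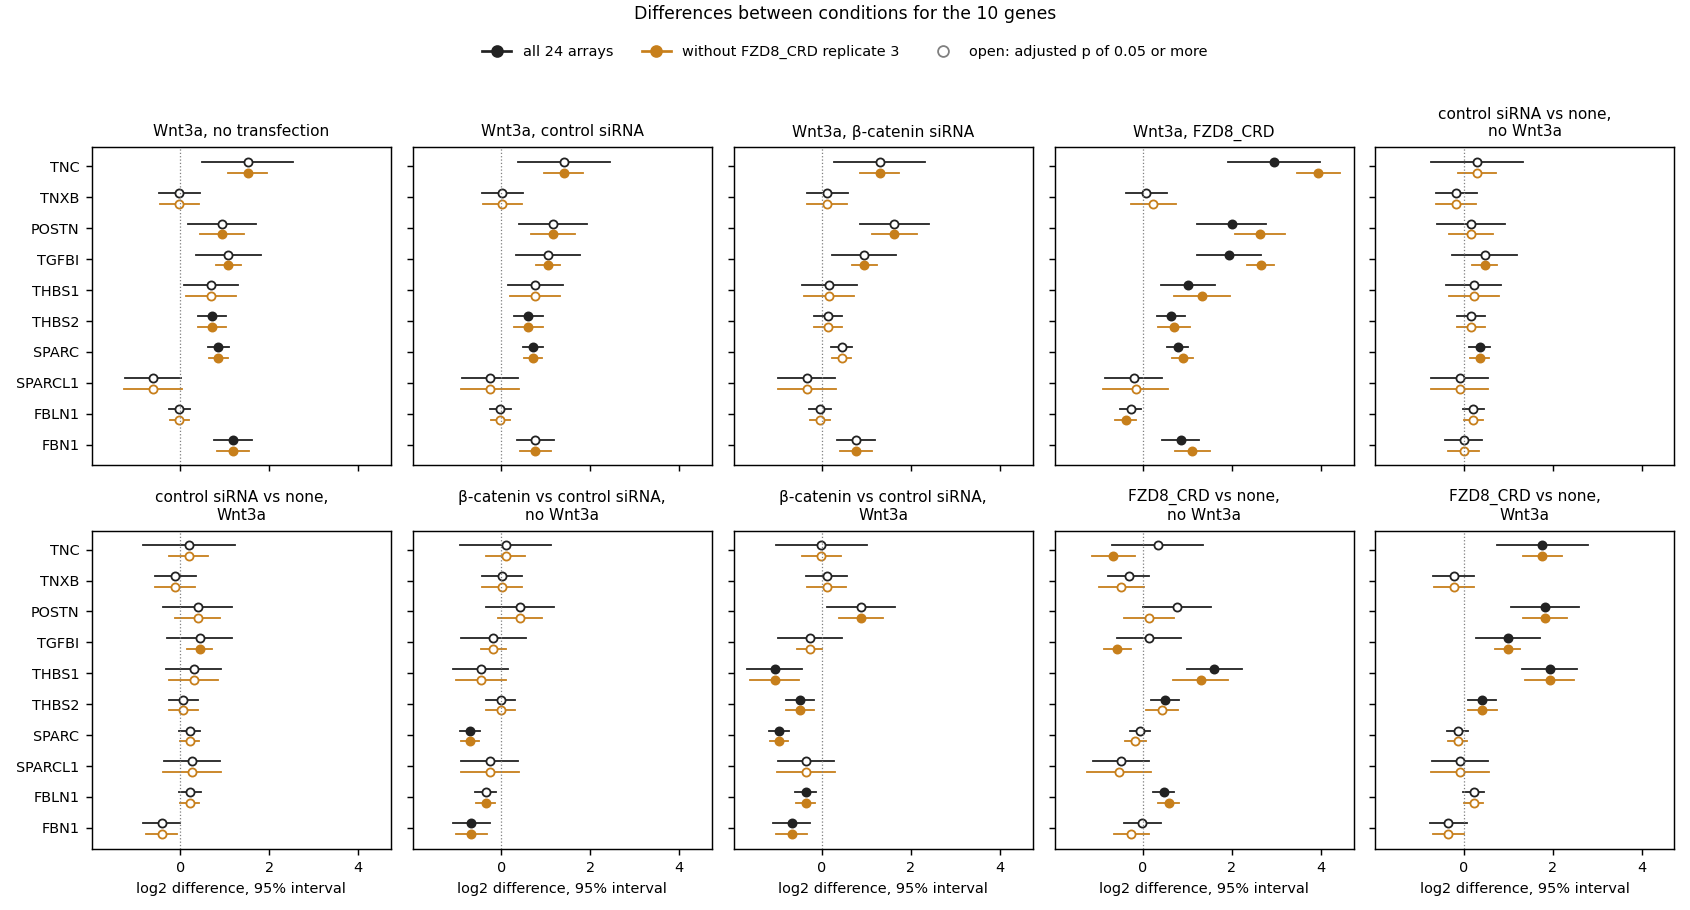
Log2 differences with 95% intervals for the 10 genes in the 10 direct comparisons, black from all 24 arrays and orange without replicate 3 of FZD8_CRD alone, with filled symbols where the adjusted p was under 0.05. Intervals of TNC, POSTN and TGFBI narrow in every comparison without that array, with the SE of TNC going from 0.49 to 0.21 for Wnt3a in untransfected cells.

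THBS1 and THBS2 encode thrombospondins that bind CD36 and CD47 and slow the growth of vessels, and thrombospondin-1 is also known to activate latent TGF-β. Their promoters are shown because both carry the TEAD core and both were lower with the β-catenin siRNA in the presence of Wnt3a. The THBS1 stretch is chr15:39580959-39581078 on the plus strand and the THBS2 stretch chr6:169253847-169253966 on the minus strand of GRCh38.p14, from RefSeq, each ending at the base before the start. GGAATG has its first base at -46 in THBS1. In THBS2 it is present at -91 and, on the other strand, at -103, with ATATAA at -30.
THBS1: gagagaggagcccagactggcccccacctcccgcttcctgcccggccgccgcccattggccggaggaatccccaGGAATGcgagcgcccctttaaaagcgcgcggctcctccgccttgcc
THBS2: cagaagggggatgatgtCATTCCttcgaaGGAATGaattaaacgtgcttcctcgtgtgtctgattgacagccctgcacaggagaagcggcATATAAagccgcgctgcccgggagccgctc

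THBS1 read 1.12, 0.69 and 0.56 in untreated cells and 1.30, 2.22 and 0.92 with Wnt3a. With control siRNA it read 1.10, 1.08 and 0.85 without and 1.72, 2.02 and 1.59 with Wnt3a. With β-catenin siRNA the values were 0.65, 0.49 and 0.50 without and 1.26, 0.59 and 0.27 with Wnt3a. So the Wnt3a arrays lay clear of the others with control siRNA but overlapped them in untransfected and β-catenin siRNA cells. Under FZD8_CRD THBS1 read 1.96, 2.21 and 3.00 without and 3.46, 3.67 and 3.09 with Wnt3a, which puts all 3 arrays of FZD8_CRD alone above the other 9 arrays without Wnt3a.

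FZD8_CRD gave the clearest THBS1 difference, 1.60 ± 0.29 higher without Wnt3a (95% interval 0.99 to 2.22, adjusted p = 0.000208, 3.04-fold) and 1.93 ± 0.29 with it (adjusted p = 4.79e-05, 3.8-fold). Both calls held under every alternative run, including each left-out array. Its second probe gave 1.10 (adjusted p = 0.0292) and 1.38 (adjusted p = 0.0087). The β-catenin siRNA was followed by lower THBS1 in the presence of Wnt3a, -1.07 ± 0.29 (adjusted p = 0.0221, 0.477-fold), with within-slide differences of -0.46, -1.43 and -1.32. This call was lost when replicate 1 (-1.10, adjusted p = 0.0537) or 2 (-0.95, adjusted p = 0.0977) of control siRNA with Wnt3a, or replicate 2 (-1.01, adjusted p = 0.0845) or 3 (-0.85, adjusted p = 0.127) of β-catenin siRNA with Wnt3a was left out. The second probe was called too (-1.34, adjusted p = 0.0328). Without Wnt3a the difference was -0.46 (adjusted p = 0.397).

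Wnt3a raised THBS1 in the presence of FZD8_CRD by 1.02 ± 0.29 (adjusted p = 0.0376, 2.02-fold). That call was lost when replicate 1 (0.80, adjusted p = 0.254) or 2 (0.93, adjusted p = 0.188) of FZD8_CRD alone or replicate 1 (0.99, adjusted p = 0.115) or 2 (0.88, adjusted p = 0.153) of FZD8_CRD with Wnt3a was left out, and the second probe gave 1.00 (adjusted p = 0.138). In untransfected, control siRNA and β-catenin siRNA cells the response was 0.69 (adjusted p = 0.176), 0.77 (adjusted p = 0.211) and 0.16 (adjusted p = 0.953), and in untransfected cells it was called without replicate 3 of Wnt3a alone (0.97, adjusted p = 0.0425). The response with β-catenin siRNA was 0.61 below that with control siRNA, a difference of -0.61 ± 0.42 (adjusted p = 1). Condition means fell from 3.41 and 2.39 with FZD8_CRD through 1.78 and 1.48 for the control siRNA and untransfected cells with Wnt3a, which overlap, to 0.55 with β-catenin siRNA.

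THBS2 read -1.35, -1.61 and -1.86 in untreated cells and -0.91, -0.63 and -1.16 with Wnt3a. With control siRNA it read -1.31, -1.49 and -1.53 without and -0.83, -0.69 and -0.98 with Wnt3a. With β-catenin siRNA the values were -1.68, -1.57 and -1.13 without and -1.44, -1.31 and -1.24 with Wnt3a. Only in the β-catenin siRNA context, of the 4, did arrays with and without Wnt3a overlap. Under FZD8_CRD THBS2 read -1.29, -1.06 and -1 without and -0.59, -0.39 and -0.48 with Wnt3a.

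Wnt3a raised THBS2 by 0.71 ± 0.15 in untransfected cells (adjusted p = 0.0118, 1.64-fold), by 0.61 ± 0.15 with control siRNA (adjusted p = 0.0429, 1.53-fold) and by 0.63 ± 0.15 in the presence of FZD8_CRD (adjusted p = 0.0157, 1.55-fold), and differed by 0.13 (adjusted p = 0.881) with β-catenin siRNA. The first call was lost without replicate 2 of Wnt3a alone (0.57, adjusted p = 0.108). The call with control siRNA was lost whichever of its 6 arrays was left out (0.54 to 0.68, adjusted p = 0.0803 to 0.207). The call in FZD8_CRD was lost without replicate 1 (0.54, adjusted p = 0.125) or 2 (0.66, adjusted p = 0.0662) of FZD8_CRD alone or replicate 2 of FZD8_CRD with Wnt3a (0.58, adjusted p = 0.0719). The second probe was called in untransfected cells (0.72, adjusted p = 0.0391) and with control siRNA (0.82, adjusted p = 0.0358), but not in the presence of FZD8_CRD (0.57).

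With β-catenin siRNA and Wnt3a THBS2 was lower than with control siRNA and Wnt3a, by -0.50 ± 0.15 (adjusted p = 0.0432, 0.709-fold), and this call was lost whichever of its 6 arrays was left out (-0.57 to -0.43, adjusted p = 0.0504 to 0.166). The second probe gave -0.76 (adjusted p = 0.015). The response to Wnt3a was smaller with β-catenin siRNA than with control siRNA by a difference of -0.48 ± 0.22 that was not called (adjusted p = 1, unadjusted p = 0.0392). FZD8_CRD gave 0.49 ± 0.15 higher THBS2 without Wnt3a (adjusted p = 0.014) and 0.41 ± 0.15 with it (adjusted p = 0.0409). The probes part here, since the second gave -0.10 (adjusted p = 0.728) and -0.24 (adjusted p = 0.363). The call without Wnt3a was lost without replicate 3 of untreated cells (0.37, adjusted p = 0.0833) or of FZD8_CRD alone (0.43, adjusted p = 0.0524), and the call with Wnt3a with any of 5 of its 6 arrays left out, all but replicate 2 of Wnt3a alone (0.28 to 0.46, adjusted p = 0.0512 to 0.189).

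SPARC encodes osteonectin, a collagen-binding protein that modulates how cells attach to matrix. Its promoter is shown because SPARC gave the most stable difference with the β-catenin siRNA. The stretch is chr5:151686916-151687035 on the minus strand of GRCh38.p14, from RefSeq, ending at the base before the start. The TEAD core is present on the other strand with its first base at -17.
SPARC: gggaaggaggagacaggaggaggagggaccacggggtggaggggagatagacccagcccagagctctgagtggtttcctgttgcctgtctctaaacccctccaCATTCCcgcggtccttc

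SPARC read 0.25, 0.21 and 0.38 in untreated cells and 0.97, 1.46 and 0.97 with Wnt3a. With control siRNA it read 0.61, 0.71 and 0.58 without and 1.32, 1.39 and 1.32 with Wnt3a. With β-catenin siRNA the values were -0.05, -0.03 and -0.13 without and 0.38, 0.42 and 0.32 with Wnt3a. Apart from Wnt3a alone (SD 0.28), the replicates of these conditions lay close together. The β-catenin siRNA arrays lay below the control siRNA arrays in both states without overlap. Under FZD8_CRD SPARC read 0.08, 0.14 and 0.44 without and 1.00, 1.09 and 0.90 with Wnt3a, so arrays with Wnt3a were above those without in all 4 contexts.

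The β-catenin siRNA lowered SPARC by a difference of -0.70 ± 0.11 without Wnt3a (adjusted p = 0.000311, 0.615-fold) and -0.97 ± 0.11 with it (95% interval -1.20 to -0.74, adjusted p = 6.64e-06, 0.51-fold). Within slides these were -0.66, -0.74 and -0.71, and -0.94, -0.97 and -1. The call with Wnt3a held under every alternative run, and the call without it under all but scaling to the spike-ins (-0.61, adjusted p = 0.48). Wnt3a raised SPARC by 0.86 ± 0.11 in untransfected cells (adjusted p = 0.000222, 1.81-fold), 0.71 ± 0.11 with control siRNA (adjusted p = 0.00285, 1.63-fold) and 0.78 ± 0.11 in the presence of FZD8_CRD (adjusted p = 0.000511, 1.72-fold). No single left-out array ended these 3 calls. With β-catenin siRNA the response was 0.44 ± 0.11 (adjusted p = 0.172), higher on 3 of 3 slides (0.42, 0.45 and 0.44). The responses with the 2 siRNAs differed by -0.27 ± 0.16 (95% interval -0.59 to 0.06, adjusted p = 1).

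Control siRNA gave higher SPARC than no transfection without Wnt3a, by 0.35 ± 0.11 (adjusted p = 0.0249, 1.28-fold), a call lost without replicate 1 (0.34, adjusted p = 0.0825) or 2 (0.32, adjusted p = 0.0864) of untreated cells or replicate 1 (0.37, adjusted p = 0.0561) or 2 (0.31, adjusted p = 0.0933) of control siRNA. With Wnt3a the difference was 0.21 (adjusted p = 0.28), called without replicate 2 of Wnt3a alone (0.37, adjusted p = 0.00899). FZD8_CRD gave -0.06 (adjusted p = 0.678) without and -0.14 (adjusted p = 0.346) with Wnt3a. In condition means control siRNA with Wnt3a (1.34), Wnt3a alone (1.14) and FZD8_CRD with Wnt3a (1.00) came first, where the arrays of Wnt3a alone overlapped those of each of the other 2, which did not overlap each other, and β-catenin siRNA with Wnt3a (0.37), untreated cells (0.28) and FZD8_CRD alone (0.22), which overlap, lay below control siRNA (0.63) and above β-catenin siRNA (-0.07).

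SPARCL1 encodes hevin, a relative of SPARC found in brain and vessels. It was close to the detection floor, with values from -6.13 (the floor) to -4.42, and 8 of the 24 arrays, none of them with Wnt3a, read it clearly over background. SPARCL1 passed the filter through the β-catenin siRNA condition without Wnt3a alone, the only one of the 8 with 3 of 3 arrays over background, so a difference against that condition is conditioned on its being high and is not given. Elsewhere no size of a difference with Wnt3a is given, since the values lie near the floor. Means without and with Wnt3a were -5.42 and -6.03 in untransfected cells, -5.52 and -5.77 with control siRNA, and -5.91 and -6.12 with FZD8_CRD. SPARCL1 was called in none of the 10 direct comparisons, so no decrease is established. The gap in untransfected cells rests on replicate 1 of untreated cells, which read -4.42 against -5.71 and -6.13 on the other 2. Within slides that difference was -1.71, -0.14 and 0.02. Calls of lower SPARCL1 with Wnt3a in untransfected cells (adjusted p = 0.0416) and with FZD8_CRD alone (adjusted p = 0.029) came only when replicate 3 of untreated cells was left out, which gives that replicate 1 more weight.

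FBN1 encodes fibrillin-1, the main protein of the microfibrils that bind latent TGF-β. The 120 bases before its listed start lie inside the span annotated for FBN1, so a stretch of 30 bases around the TEAD core alone is shown, chr15:48645011-48645040 on the minus strand of GRCh38.p14, from RefSeq. The first base of GGAATG is at -58. The core was thus present in THBS1, THBS2, SPARC and FBN1, and in a second listed promoter of TNXB (at -56). With β-catenin siRNA and Wnt3a TNXB was not called, while THBS1, THBS2, SPARC, FBN1 and FBLN1, which lacks the core, were lower. The motifs were chosen after the sequences were seen, so their overlap with these calls is no test of a link. Whether TEAD factors have a part was not tested. The TCF/LEF core was in the window of none of the 10 genes.
FBN1: gggttgggcttgGGAATGgggaccgcgagg

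**Figure D4:**
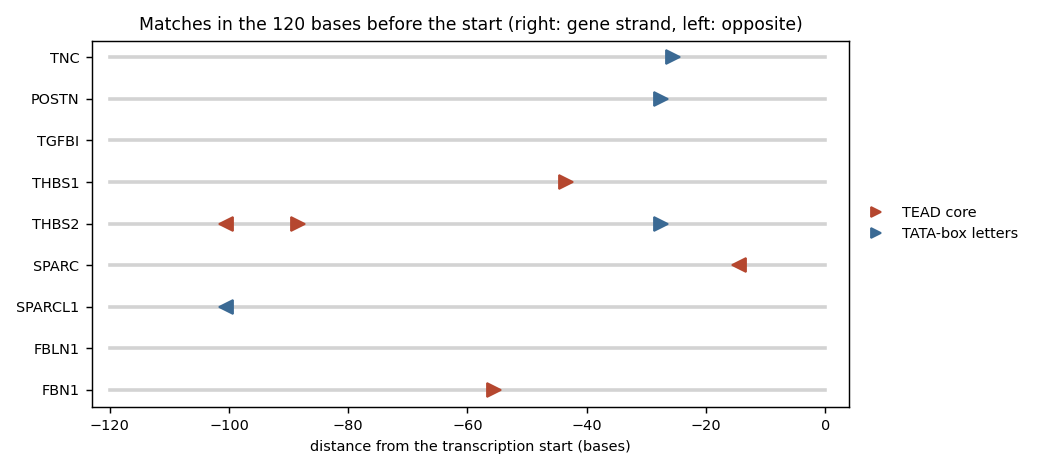
Positions of the TEAD core (red) and of the TATA-box letters (blue) in the 120 bases before the start of 9 of the 10 genes, TNXB left out, with distance from the start in bases on the horizontal axis. An arrow to the right is a match on the gene's strand and one to the left a match on the other strand, such as the TEAD core of SPARC at -17.

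FBN1 read -3.18, -3.17 and -2.80 in untreated cells and -2.06, -1.82 and -1.71 with Wnt3a. With control siRNA it read -3.04, -3.03 and -3.09 without and -2.49, -2.31 and -2.06 with Wnt3a. With β-catenin siRNA the values were -3.91, -3.67 and -3.62 without and -3.05, -3.20 and -2.66 with Wnt3a. Wnt3a arrays lay above the others in each context, and the β-catenin siRNA arrays below those of control siRNA in both states. Under FZD8_CRD FBN1 read -3.34, -3.28 and -2.56 without and -2.44, -2.30 and -1.89 with Wnt3a, again without overlap.

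Wnt3a raised FBN1 by 1.19 ± 0.20 in untransfected cells (95% interval 0.77 to 1.60, adjusted p = 0.00252, 2.27-fold), a call that no single left-out array ended, and by 0.85 ± 0.20 in the presence of FZD8_CRD (adjusted p = 0.0126, 1.8-fold). The latter was lost without replicate 1 (0.71, adjusted p = 0.113) or 2 (0.74, adjusted p = 0.102) of FZD8_CRD alone or replicate 3 of FZD8_CRD with Wnt3a (0.69, adjusted p = 0.0717). With control siRNA the response was 0.77 (adjusted p = 0.0504) and with β-catenin siRNA 0.76 (adjusted p = 0.187), and the responses with the 2 siRNAs differed by -0.01 (95% interval -0.60 to 0.59, adjusted p = 1). Both were called with slide as a block (adjusted p = 0.00345 and 0.0248), with within-slide differences of 0.56, 0.72 and 1.03 and of 0.86, 0.48 and 0.96, and without replicate 3 of FZD8_CRD alone (adjusted p = 0.0105 and 0.0438).

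The β-catenin siRNA was followed by lower FBN1 without Wnt3a (-0.68 ± 0.20, adjusted p = 0.0348, 0.625-fold) and with it (-0.68 ± 0.20, adjusted p = 0.0319, 0.623-fold). Within slides the differences were -0.86, -0.64 and -0.53, and -0.56, -0.88 and -0.60, and with slide as a block the adjusted p was 0.00145 and 0.0012. The call without Wnt3a was lost whichever of its 6 arrays was left out (-0.74 to -0.59, adjusted p = 0.0675 to 0.135). The call with Wnt3a was lost without replicate 2 (-0.70, adjusted p = 0.0763) or 3 (-0.57, adjusted p = 0.146) of control siRNA with Wnt3a or replicate 1 (-0.64, adjusted p = 0.0943) or 2 (-0.57, adjusted p = 0.159) of β-catenin siRNA with Wnt3a. With the slide block FBN1 was also called lower with control siRNA than without transfection in the presence of Wnt3a (-0.42, adjusted p = 0.0336; within slides -0.43, -0.5 and -0.35) and lower with FZD8_CRD and Wnt3a than with Wnt3a alone (-0.35, adjusted p = 0.0335; within slides -0.38, -0.48 and -0.18). In condition means FBN1 ran from -1.86 with Wnt3a alone and -2.21 and -2.29 for FZD8_CRD and control siRNA with Wnt3a, whose arrays overlap, to -2.97 for β-catenin siRNA with Wnt3a, which did not stand clear of untreated cells, control siRNA and FZD8_CRD alone (-3.05, -3.06 and -3.06), and to -3.73 for β-catenin siRNA.

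FBLN1 encodes fibulin-1, a glycoprotein that binds fibronectin and basement membrane proteins. It varied little, from 2.02 to 2.91 over the 24 arrays, and differed by -0.05 to -0.02 with Wnt3a outside FZD8_CRD. FZD8_CRD alone gave 2.90, 2.91 and 2.56 against 2.25, 2.52 and 2.21 in untreated cells, a rise of 0.46 ± 0.11 (adjusted p = 0.00278, 1.38-fold), which was called on each of its 3 probes (0.39 to 0.64) but not without replicate 1 of every condition (0.37, adjusted p = 0.114). With Wnt3a the difference was 0.22 (adjusted p = 0.148), called with slide as a block (adjusted p = 0.0249; within slides 0.46, 0.07 and 0.12), on a second probe (0.34, adjusted p = 0.0223) and without replicate 2 of Wnt3a alone (0.32, adjusted p = 0.0441). The third probe gave 0.005 and was not called. With β-catenin siRNA and Wnt3a FBLN1 read 2.26, 2.15 and 2.02 against 2.47, 2.59 and 2.48 with control siRNA and Wnt3a, a difference of -0.37 ± 0.11 (adjusted p = 0.0401, 0.772-fold). That call was lost with any of 5 of the 6 arrays left out, all but replicate 1 of β-catenin siRNA with Wnt3a (-0.40 to -0.31, adjusted p = 0.0709 to 0.172), and the other 2 probes were not called (0.03 and -0.24).

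Without Wnt3a the β-catenin siRNA difference of FBLN1 was -0.35 (adjusted p = 0.0562), called with slide as a block (adjusted p = 0.00411) and without replicate 3 of FZD8_CRD alone (adjusted p = 0.029). Its within-slide values were -0.37, -0.32 and -0.36. Adjusted over all probes, none of the 3 FBLN1 probes was called there, with differences from -0.35 to 0.02. The Wnt3a difference in the presence of FZD8_CRD was -0.27 (adjusted p = 0.166), called lower with slide as a block (adjusted p = 0.0242; within slides -0.26, -0.35 and -0.21) and without that array (-0.39, adjusted p = 0.0213). Control siRNA against no transfection without Wnt3a gave 0.21 (adjusted p = 0.211), called with the block (adjusted p = 0.0413; within slides 0.33, 0.09 and 0.21) and on a second probe (0.35, adjusted p = 0.0303). FBLN1 was the only one of the 9 genes bright on all arrays with a called lower value after Wnt3a in any of these fits. Its condition means, from 2.79 with FZD8_CRD alone to 2.14 with β-catenin siRNA and Wnt3a, overlapped between neighbours.

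**Figure D5:**
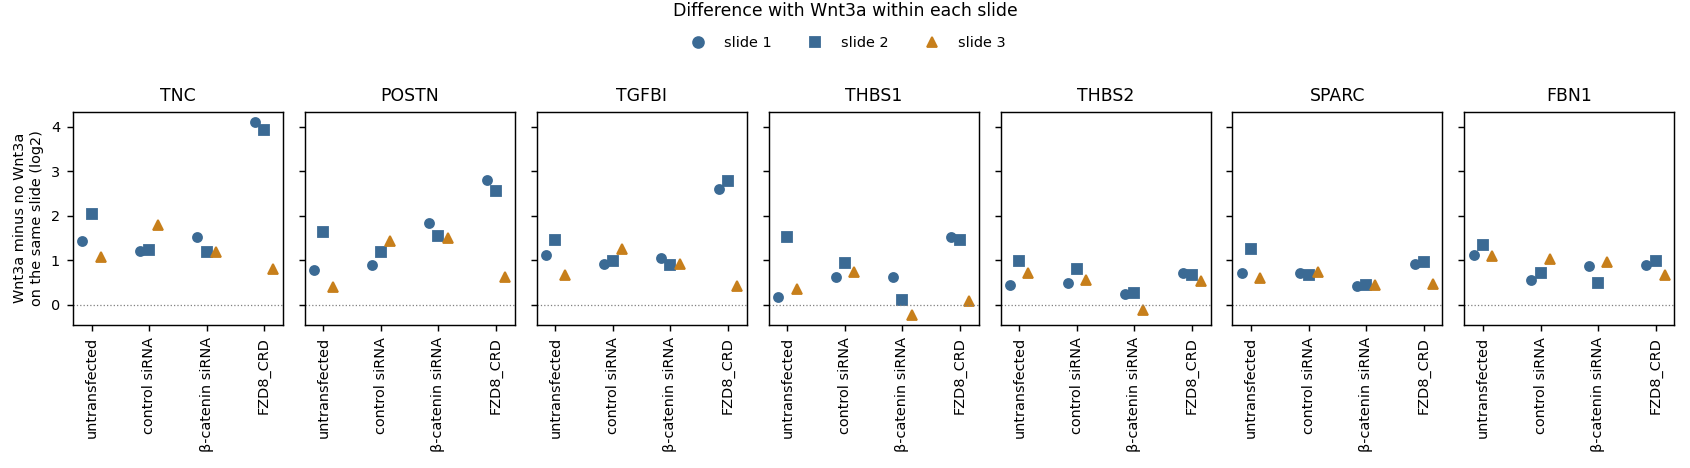
Wnt3a differences within each of the 3 slides (signal with minus signal without Wnt3a on the same slide, log2) for the 7 genes whose condition means span at least 1, in the 4 contexts, with slide 3 in orange. In FZD8_CRD the slide 3 values of TNC (0.81 against 4.11 and 3.92), POSTN and TGFBI lie below those of the other slides.

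The direction of the Wnt3a response was read on each slide. TNC, POSTN, TGFBI, THBS1, THBS2, SPARC and FBN1 were higher on 3 of 3 slides in untransfected cells, with control siRNA and in the presence of FZD8_CRD. These 7 were picked by a span of at least 1 between condition means, which a Wnt3a difference itself widens, so their shared sign follows in part from that choice. The other 3 genes did not share it: FBLN1 was lower on 3 of 3 slides in the presence of FZD8_CRD (-0.26, -0.35 and -0.21) and higher on 1 of 3 in each other context, TNXB was higher on 1, 1, 2 and 3 slides in the 4 contexts, and SPARCL1, near the floor, was higher on 1 of 3 in untransfected cells and on 0 of 3 with control siRNA and in the presence of FZD8_CRD (its β-catenin siRNA values are conditioned on the filter and left out). With β-catenin siRNA TNC (1.53, 1.18 and 1.18), POSTN (1.84, 1.54 and 1.5), TGFBI, SPARC and FBN1 were higher on 3 of 3 slides. THBS1 (0.61, 0.10 and -0.23) and THBS2 (0.24, 0.26 and -0.11) were higher on 2 of 3.

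The 7 genes were compared over the 8 condition means by Pearson correlation over 8 points with no test. TNC and TGFBI (0.97), TNC and POSTN (0.93) and POSTN and TGFBI (0.88) ran alike, as did SPARC and FBN1 (0.92). THBS2 had 0.87 with TNC, 0.86 with THBS1, 0.84 with TGFBI, 0.79 with FBN1 and 0.75 with SPARC. THBS1 had 0.66 with TNC. With SPARC and FBN1, POSTN had 0.38 and 0.45, TNC 0.64 and 0.68, and TGFBI 0.74 and 0.71. The points share replicate 3 of FZD8_CRD alone. Outside the 10 genes, 3592 RefSeq-named genes with a span of at least 1 were searched for the 3 closest patterns to each. They were SORCS3 (0.979), IGF2BP3 (0.972) and IGSF3 (0.969) for TNC, and FURIN (0.974), PXK (0.955) and TLL1 (0.951) for POSTN. For TGFBI they were RASSF9 (0.963), SORCS3 (0.96) and CGB3 (0.958). STEAP1B (0.989), PLEKHO1 (0.982) and CHRNA3 (0.982) were closest to THBS1, and SMCO2 (0.986), TENM2 (0.975) and KRT83 (0.973) to THBS2. For SPARC they were IGFL2 (0.98), SLC12A8 (0.977) and ASIC1 (0.972), and for FBN1 FAP (0.984), which encodes a protease of activated fibroblasts, IFNE (0.978) and F3 (0.959).

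Of 18 other matricellular genes 13 were tested. In untransfected cells 3 rose and 1 fell (against 5.42% of all genes; median difference -0.05, beside 0.02 over all genes): SPOCK1, a proteoglycan related to SPARC (1.03, adjusted p = 0.000158), CCN1 (0.82, adjusted p = 0.00624) and CCN3 (0.66, adjusted p = 0.0235) were higher and osteopontin, SPP1 (-0.74, adjusted p = 0.0404), lower. With control siRNA 2 rose (SPOCK1, 1.07, and CCN1, 0.63) against 2.02% of all genes, and with β-catenin siRNA 1 (SPOCK1, 0.81, adjusted p = 0.0242) against 0.0406%. In the presence of FZD8_CRD 2 rose and 1 fell (SPOCK1, 1.01, and SMOC1, 0.85; FSTL1, -0.79) against 8.22%. SPOCK1 was the only gene of this list called in all 4 contexts. With β-catenin siRNA and Wnt3a 3 were higher and 2 lower than with control siRNA and Wnt3a (median -0.10), against 10.6% of all genes. With FZD8_CRD 2 were higher and 5 lower without Wnt3a (median -0.25) and 2 higher and 4 lower with it (median -0.31), where 41.9% and 37.2% of all genes were called, so these counts do not set the list apart.

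Among other fibulins, fibrillins and microfibril or elastic fibre genes 17 of 18 were tested. Wnt3a was followed by 2 higher in untransfected cells (median 0.33), 3 higher with control siRNA (median 0.22), 0 with β-catenin siRNA by limma (6 at an unadjusted p under 0.05, median 0.17), and 5 higher and 1 lower in the presence of FZD8_CRD, against 5.42%, 2.02%, 0.0406% and 8.22% of all genes. The last count includes MFAP2, which was over background on 5 arrays and passed the filter through the condition with FZD8_CRD and Wnt3a alone, so its rise is conditioned on that and does not count as a result. HMCN1, hemicentin, rose by 1.53 (adjusted p = 0.000121) in untransfected cells and by 1.06 (adjusted p = 0.00632) with control siRNA, and LTBP1, which anchors latent TGF-β to microfibrils, rose by 0.96 (adjusted p = 0.0489) in untransfected cells and by 1.42 (adjusted p = 0.0044) with FZD8_CRD. The β-catenin siRNA gave 2 higher and 5 lower without Wnt3a (median -0.40) and 1 higher and 5 lower with it (median -0.21), against 10.5% and 10.6%. HMCN1 was lower by -1.32 (adjusted p = 0.000101) and -1.94 (adjusted p = 9.93e-07), side by side with FBN1 at -0.68 and -0.68. FZD8_CRD gave 3 higher and 2 lower without Wnt3a (median -0.05) and 3 higher (MFAP2, for the same reason, not a result) and 3 lower with it, against 41.9% and 37.2% of all genes, which again does not set the list apart. With Wnt3a these held LTBP1 at 1.31 (adjusted p = 0.00095), HMCN1 at -2.14 (adjusted p = 2.54e-07) and EFEMP2, fibulin-4, at -1.61 (adjusted p = 3.41e-07).

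Of 16 receptors for these proteins 14 were tested. Wnt3a gave 2 higher and 1 lower in untransfected cells (ITGB5, 0.52, and ITGA5, 0.67, higher; median 0.18), 1 higher and 1 lower with control siRNA, 0 with β-catenin siRNA by limma (6 at an unadjusted p under 0.05), and 5 higher and 2 lower in the presence of FZD8_CRD (median 0.23), against 5.42%, 2.02%, 0.0406% and 8.22% of all genes. There the integrin subunits ITGB3 (1.86, adjusted p = 0.0221), ITGA5 (0.99, adjusted p = 0.0037) and ITGAV (0.79, adjusted p = 0.000635) rose. FZD8_CRD gave 7 higher and 4 lower without Wnt3a (median 0.24), against 41.9% of all genes, and 6 higher and 4 lower with it (median 0.27), against 37.2%. Among the latter were ITGB3 (2.45, adjusted p = 0.000531), CD47, a thrombospondin receptor (1.03, adjusted p = 4.27e-07), and ITGAV (1.02, adjusted p = 2.49e-06), while SDC4 (-0.97) and LRP1 (-0.69) fell. The β-catenin siRNA with Wnt3a gave 2 lower against 10.6% of all genes, CD36, another thrombospondin receptor (-0.83, adjusted p = 0.000122), and SDC4 (-0.40, adjusted p = 0.0427), beside THBS1 at -1.07 and THBS2 at -0.50.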

How the data were processed

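RNA from 24 cultures of HepaRG cells had been hybridised to one-colour Agilent arrays of 62976 spots, 3 slides of 8 arrays, each slide carrying 1 array of every condition; the replicate number is the slide. The scanner's processed intensity of each spot, per the file headers from Feature Extraction 10.7.1.1 (10.7.3.1 in the submitters' processing notes), was used. The deposited series values, which the authors had scaled and put on the log2 scale, served as an alternative. Intensities were divided by the array's 75th percentile, set to a floor of 1.43% of it and put on the log2 scale, and spots marked by the scanner as faulty (264 to 643 an array) were removed. A probe stayed if some condition had all 3 of its arrays clearly over background for it (31065 of 50683 probes), and the brightest kept probe stood for its gene (24647 genes). limma 3.58.1 in R 4.3.3 was fitted to 8 condition means with a trended prior, for 12 comparisons, and p-values were adjusted by Benjamini-Hochberg over all genes. The fit was also run on simulated data with independent noise on each array. That simulation had no slide effect and no outlying array, so it does not bear on either. Python 3.11.15 with pandas 2.3.3, numpy 2.4.6 and matplotlib 3.10.9 did the rest.

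The genes named are the 10 members, CTNNB1, some of the called genes of the lists, picked for size of change or role among those well above background on all 24 arrays, the markers, and the 3 genes closest in pattern to each member whose condition means span at least 1. The members and lists were chosen with earlier results of these data known. Lists were other matricellular genes, other microfibril genes, receptors, and markers of liver, stellate cells and fibroblasts, endothelium and leukocytes. Alternatives were quantile or spike-in scaling, normexp background correction (offset 50), the deposited values, no filter, a floor of 1 intensity unit, the mean of a gene's probes, the slide as a block, only the conditions compared, the study's thresholds (unadjusted p under 0.01 and a fold above 1.5 or below 0.7), and leaving out arrays. Promoter sequences came from RefSeq (GRCh38.p14), which had an entry for all 10 genes.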

Additional observations from a re-analysis of the deposited data

How the results depend on the processing

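Of the 28 called differences of the 10 genes, 4 kept their call under every alternative run: SPARC lower with β-catenin siRNA and Wnt3a, THBS1 higher with FZD8_CRD without and with Wnt3a, and POSTN higher with FZD8_CRD and Wnt3a. Over all 28 there were 550 alternative values, of which 382 kept the call, 168 lost it and 0 changed to a called opposite sign. The 92 uncalled differences had 1928 alternative values, of which 79 gained a call and 4 were called with the opposite sign. Those 4 were FZD8_CRD alone against untreated cells, with TNC at -0.66 and TGFBI at -0.56 without replicate 3 of every condition and -0.67 and -0.58 without replicate 3 of FZD8_CRD alone. Without replicate 2 of every condition the same differences were 0.86 for TNC and 0.52 for TGFBI.

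The number of the 10 genes called by limma changed as follows, with the number called among all 24647 genes beside it, and the cause was not tested. With all arrays and the 75th percentile, the numbers over all genes were 1337, 497, 10 and 2026 for Wnt3a in untransfected cells, with control siRNA, with β-catenin siRNA and with FZD8_CRD, 5527 and 2185 for control siRNA without and with Wnt3a, 2589 and 2610 for β-catenin siRNA, and 10317 and 9157 for FZD8_CRD. Scaling to the spike-ins, which moved the median difference of all genes to between -0.46 and 0.31, gave 0 for Wnt3a in untransfected cells (4 at an unadjusted p under 0.05; 279 of all genes), 0 with control siRNA (7; 56), 3 with FZD8_CRD (237), 0 for control siRNA against no transfection without Wnt3a (0; 1610), 0 for β-catenin siRNA without Wnt3a (2; 172) and 2 with it (662), and 3 for FZD8_CRD with Wnt3a (2299).

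Fitting only the conditions compared gave 0 for Wnt3a in untransfected cells (6 at an unadjusted p under 0.05; 2 of all genes), 7 with control siRNA (1308), 1 with β-catenin siRNA (10), 0 with FZD8_CRD (7; 0), and 2 for control siRNA (3649) and 4 for β-catenin siRNA (4268) without Wnt3a. That fit has fewer arrays for its spread. The study's thresholds gave 5 for Wnt3a in untransfected cells, 5 with control siRNA, 2 with β-catenin siRNA, 0 for control siRNA without Wnt3a (1 at an unadjusted p under 0.05), 3 for β-catenin siRNA with Wnt3a, and 1 and 3 for FZD8_CRD without and with Wnt3a, where 4.35%, 2.74%, 1.29%, 10.9%, 6.52%, 22.4% and 18.9% of all genes passed them. For Wnt3a with control siRNA, quantile scaling gave 1 (521 of all genes), normexp 1 (388) and no filter 1 (275). For β-catenin siRNA with Wnt3a, normexp gave 2 (2125) and no filter 1 (2312), and no filter gave 1 without Wnt3a (2120) and 3 for FZD8_CRD with Wnt3a (8380). Every other change in the number called under these alternatives was of 1 gene net, as calls could be both lost and gained. Scaling to the spike-ins ended the calls of THBS2 and FBLN1 for FZD8_CRD without Wnt3a. Fitting only the conditions compared ended those of THBS1 and FBN1 for β-catenin siRNA with Wnt3a.

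With the slide as a block more of all genes were called in each of the 10 direct comparisons. For Wnt3a the count of the 10 genes was 3 in untransfected cells (2799 of all genes), 3 with control siRNA (1035), 1 with β-catenin siRNA (37) and 8 with FZD8_CRD (3228). It was 2 and 1 for control siRNA without and with Wnt3a (7848 and 3669), 3 and 5 for β-catenin siRNA (4056 and 3821) and 4 and 8 for FZD8_CRD (13081 and 11915).

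Leaving out arrays, singly or by replicate number, gave 0 to 7 for Wnt3a in untransfected cells (17 to 6252 of all genes), 0 to 6 with control siRNA (4 to 1247), 0 to 4 with β-catenin siRNA (0 to 135) and 0 to 8 with FZD8_CRD (0 to 5233). The counts of 0 came without replicate 1 of every condition (5, 6, 3 and 6 at an unadjusted p under 0.05; 24, 4, 1 and 3 of all genes), without replicate 2 (3, 6, 3 and 7; 17, 12, 0 and 0) and, with β-catenin siRNA, also without single arrays. It gave 0 to 2 and 0 to 1 for control siRNA without and with Wnt3a (299 to 6775 and 1 to 3975 of all genes), 1 to 3 and 1 to 6 for β-catenin siRNA (488 to 3321 and 587 to 3222), and 2 to 5 and 2 to 6 for FZD8_CRD (6193 to 11190 and 4103 to 10069). The difference in response was called for 0 of the 10 genes in every such fit with β-catenin siRNA (0 to 24 of all genes) and for 0 to 3 with FZD8_CRD (0 to 2896). Residuals of arrays with the same replicate number correlated at a mean of 0.384 (82 of 84 pairs above 0.1), against -0.191 between numbers, so arrays of the same number share a batch, and whether it is the slide or the culture experiment cannot be told apart. Signal close to background limits SPARCL1 and 2 of the 5 TNXB probes.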
